A study of Mus musculus with 2 samples.

Results

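The S100 genes described here were S100a4, S100a6, S100a8, S100a9, S100a10 and S100a11, 6 of the 32285 genes listed in the count tables, chosen by symbol. They were followed through 15 cell classes of mouse pancreatic tumors and through empty droplets, which hold the RNA that floats free in the cell suspension. Male C57BL/6J mice of 5 to 6 weeks had received K210 tumor cells in the pancreas, a line derived from a mouse model with floxed Trp53 (Trp53 fl/fl) and Cre under the pancreatic Pdx1 promoter (Pdx1-Cre). The treated mice were given cmExoaCD11b intraperitoneally, that is exosomes of mouse embryonic fibroblasts carrying IL-12 mRNA, cGAMP (5 µg per mouse) and anti-CD11b antibodies on their surface. The control mice were given PBS. At 48 h after treatment cells from the tumors of 3 mice were pooled into 1 droplet library per treatment (10x Genomics, 3′ ends). The treatments have no replicate libraries, so their ratios describe these libraries and carry no test.

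S100 proteins are small proteins that bind calcium through EF hands and act mostly as dimers. S100a8 and S100a9 form calprotectin, the most abundant cytosolic protein complex of neutrophils, which binds zinc and manganese and signals through Toll-like receptor 4 once released. S100a4 and S100a6 are found in motile cells and bind the myosin and annexin proteins, S100a10 pairs with annexin A2 at the plasma membrane, and S100a11 pairs with annexin A1 and takes part in membrane repair.

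All 6 genes lie on chromosome 3 in a cluster of the family. In the order of the RefSeq annotation (GRCm38.p6) S100a4, S100a5, S100a6, S100a7a, S100a8 and S100a9 follow each other, whereas S100a11 and S100a10 stand at the far end. The neighbours S100a8 and S100a9 are read from opposite strands. Their promoters and that of S100a4 are shown because the neutrophils held most S100a8 and S100a9 and very little S100a4. Each is the 250 bases before the annotated start, from RefSeq, 5′ to 3′ on the strand of the gene, S100a4 from chr3:90603520-90603769 (plus strand), S100a8 from chr3:90668821-90669070 (plus strand) and S100a9 from chr3:90695722-90695971 (minus strand). Capitals mark the motifs named after the sequences.
S100a4: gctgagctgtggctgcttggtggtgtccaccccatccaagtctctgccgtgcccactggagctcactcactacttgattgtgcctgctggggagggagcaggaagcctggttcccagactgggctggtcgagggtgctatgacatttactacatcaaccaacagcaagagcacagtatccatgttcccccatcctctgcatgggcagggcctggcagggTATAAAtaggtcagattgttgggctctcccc
S100a8: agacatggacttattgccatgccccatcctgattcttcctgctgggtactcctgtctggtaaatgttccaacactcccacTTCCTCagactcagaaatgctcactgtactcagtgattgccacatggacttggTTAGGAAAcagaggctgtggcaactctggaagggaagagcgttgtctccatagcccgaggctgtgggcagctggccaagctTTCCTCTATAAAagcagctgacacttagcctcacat
S100a9: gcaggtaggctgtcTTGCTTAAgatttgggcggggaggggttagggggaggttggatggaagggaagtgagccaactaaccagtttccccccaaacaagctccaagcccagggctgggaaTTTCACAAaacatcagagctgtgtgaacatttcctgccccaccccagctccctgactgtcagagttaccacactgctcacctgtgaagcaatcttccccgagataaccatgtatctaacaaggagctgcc
Searched on both strands, the TATA box TATAAA was found in S100a4 (31 to 26 bases before the start) and S100a8 (30 to 25 bases), and in 12.4% of 32851 promoters of that length. The C/EBP-type letters TTNNGNAA were found in S100a8 (117 to 110 bases) and at 236 to 229 and 130 to 123 bases in S100a9, and in 36.8% of promoters. The PU.1-type letters GAGGAA, which read TTCCTC on the other strand, were found in S100a8 at 170 to 165 and 36 to 31 bases and once in S100a11, and in 23.3% of promoters. The AP-1-type letters TGANTCA stood at 2 places of the S100a11 promoter and in 6.75% of promoters. Letters that match are a description and no evidence of binding. S100a6 held none of these 4 motifs in its 250 bases. For S100a10 no promoter sequence was available, so it was not searched.

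Sequencing gave 67143628 UMIs in 644248 barcodes for PBS and 81288480 UMIs in 723594 barcodes for cmExoaCD11b. After filters and the removal of doublets 6835 and 7076 cells were kept, with medians of 3471 and 4112 UMIs per cell, and 16 of the kept barcodes occurred in both libraries. In what follows, paired values stand in the order PBS, then cmExoaCD11b. Cells were placed in classes by the UMIs of marker genes that include no S100 gene. Neutrophils were split into early precursors (Elane, Mpo; 73 and 124 cells), dividing immature neutrophils (Camp, Ngp, Ltf with the division genes Mki67, Top2a and Stmn1; 256 and 442), non-dividing immature neutrophils (659 and 934), mature neutrophils high in Retnlg (635 and 1099) and those low in Retnlg (2311 and 1347). High and low in Retnlg were set by the summed CPM of Retnlg and Mmp8. Near the cut of 4169 CPM for this sum, 9.27% and 12.5% of these mature cells lay within 1.5-fold. The other classes were monocytes (198 and 209 cells), macrophages (231 and 43), dendritic cells (32 and 66), CD8 T cells (137 and 344), CD4 T cells (130 and 220), T cells without Cd4 or Cd8 transcripts (108 and 272), NK cells (25 and 92), B cells (270 and 290), plasma cells (27 and 105) and keratin-expressing epithelial cells (53 and 38). Cells that passed no gate (966 and 820) or more than 1 gate (697 and 590) stayed out. Levels are CPM, counts in 1000000 UMIs of a class, and their exact 95% Poisson limits cover counting error only. Such a level falls when other genes of the class take more of its RNA. The 3′ libraries do not allow levels of different genes to be compared, so each gene is compared with itself.

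S100a8 and S100a9 were the genes of the immature neutrophils. In the PBS library S100a8 stood at 35095 CPM in early precursors, 92568 in dividing immature neutrophils, 111241 in non-dividing immature neutrophils, 67119 in Retnlg-high neutrophils and 11207 in Retnlg-low neutrophils. In the cmExoaCD11b library the same 5 classes had 32535, 81138, 96779, 66320 and 13971 CPM. Both libraries thus had the same order, lowest in Retnlg-low cells and highest in the non-dividing immature cells. S100a9 followed it with 41367, 134740, 158529, 91379 and 17084 CPM in PBS. The cmExoaCD11b values of S100a9 were 41118, 119994, 136876, 92463 and 23782 CPM.

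Together these 2 genes took 10.7% and 11.8% of all UMIs of the kept cells. Their joint share was 27.0% and 23.4% in non-dividing immature neutrophils and 22.7% and 20.1% in the dividing ones. Among single early precursors the share was spread widely, from 0.242% at the 10th percentile to 15.9% at the 90th in PBS and from 0.423% to 14.9% in cmExoaCD11b. The dividing immature cells were narrower, from 16.8% to 28.5% and from 15.4% to 25.5%. Early precursors thus held cells nearly without S100a8 and S100a9 beside cells with much of both.

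**Figure D1:**
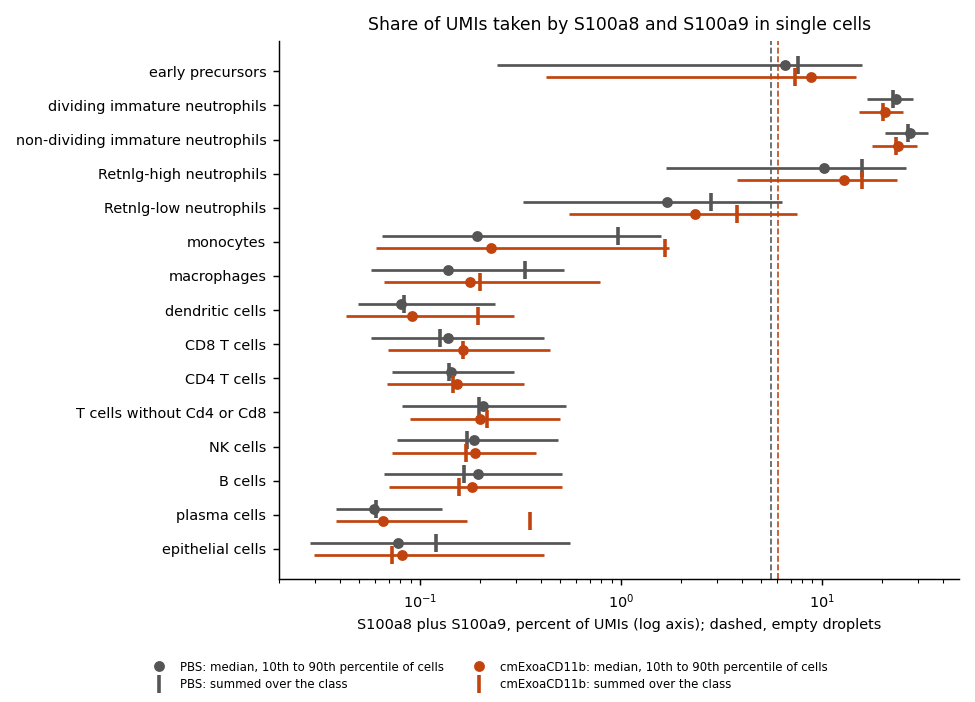
Share of UMIs taken by S100a8 and S100a9 in single cells of each class, in percent on a log axis, for PBS (grey) and cmExoaCD11b (orange). Points are medians over cells and lines run from the 10th to the 90th percentile. Ticks are the sums over the class and dashed lines the empty droplets (5.58% and 6.05%). By class sum the immature neutrophils lie highest. The Retnlg-low neutrophils (2.83% and 3.78%) and the classes outside the neutrophils lie below the empty droplets.

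Dividing immature neutrophils exceeded early precursors 2.64-fold in PBS and 2.49-fold in cmExoaCD11b for S100a8. The same ratio was 3.26 and 2.92 for S100a9 and 7.27 and 8.38 for S100a6. These 3 genes were the members past 1.5-fold higher in both libraries, where 13.9% and 15.6% of all genes with at least 50 UMIs in the pair of classes were. S100a10 was lower in the dividing cells, with ratios of 0.611 and 0.322, where 40.4% and 40.1% of genes were past 1.5-fold lower. From non-dividing immature to Retnlg-high cells S100a8 was lower, with ratios of 0.603 and 0.685, and S100a9 with 0.576 and 0.676, where 28.1% and 27% of genes were past 1.5-fold lower. The cmExoaCD11b ratios of both genes did not pass 1.5-fold. From Retnlg-high to Retnlg-low cells both were much lower, S100a8 with ratios of 0.167 and 0.211 and S100a9 with 0.187 and 0.257.

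Among the neutrophil classes S100a6 and S100a11 were highest in Retnlg-high cells and lower again in Retnlg-low cells. S100a6 had 107 CPM in early precursors, 775 in dividing and 3803 in non-dividing immature neutrophils and 6908 in Retnlg-high cells of the PBS library, and 1097 in Retnlg-low cells. The cmExoaCD11b library had 127, 1066, 3338, 5931 and 1004 CPM in these classes. In both libraries S100a6 was thus highest at the Retnlg-high stage, later than S100a8 and S100a9. The median single cell followed the same order, from 26.4 and 18.0 CPM in early precursors through 413 and 582 in dividing and 3269 and 2740 in non-dividing immature cells to 3340 and 4124 CPM in Retnlg-high cells.

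S100a11 had 1717 and 1480 CPM in early precursors, 1693 and 1843 in dividing immature, 2954 and 3138 in non-dividing immature, 5271 and 5395 in Retnlg-high and 1385 and 1810 in Retnlg-low neutrophils. It was thus already present in early precursors and was highest at the Retnlg-high stage in both libraries. Non-dividing over dividing immature cells gave ratios of 4.91 and 3.13 for S100a6 and of 1.75 and 1.70 for S100a11, and these were the 2 members past 1.5-fold there, against 10.6% and 11.3% of all genes, and none was past 1.5-fold lower, against 34.3% and 33.8%. From that stage to the Retnlg-high cells the ratios were 1.82 and 1.78 for S100a6 and 1.78 and 1.72 for S100a11. S100a10 (2.66 and 1.68) and S100a4 (3.44 and 1.48) were at low levels there, so 4 and 3 of 6 members were past 1.5-fold higher, where 26.2% and 20.4% of genes were. In Retnlg-low against Retnlg-high cells 4 of 6 members were past 1.5-fold lower in both libraries, with ratios of 0.159 and 0.169 for S100a6 and 0.263 and 0.336 for S100a11 beside S100a8 and S100a9, against 8.96% and 10.4% of all genes. The other members, S100a4 (4.08 and 13.1) and S100a10 (4.17 and 5.53), were past 1.5-fold higher, where 49.1% and 37% of genes were. RefSeq lists a pseudogene of S100a11 that the count tables do not, so reads it shares with S100a11 make that gene's level uncertain.

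**Figure D2:**
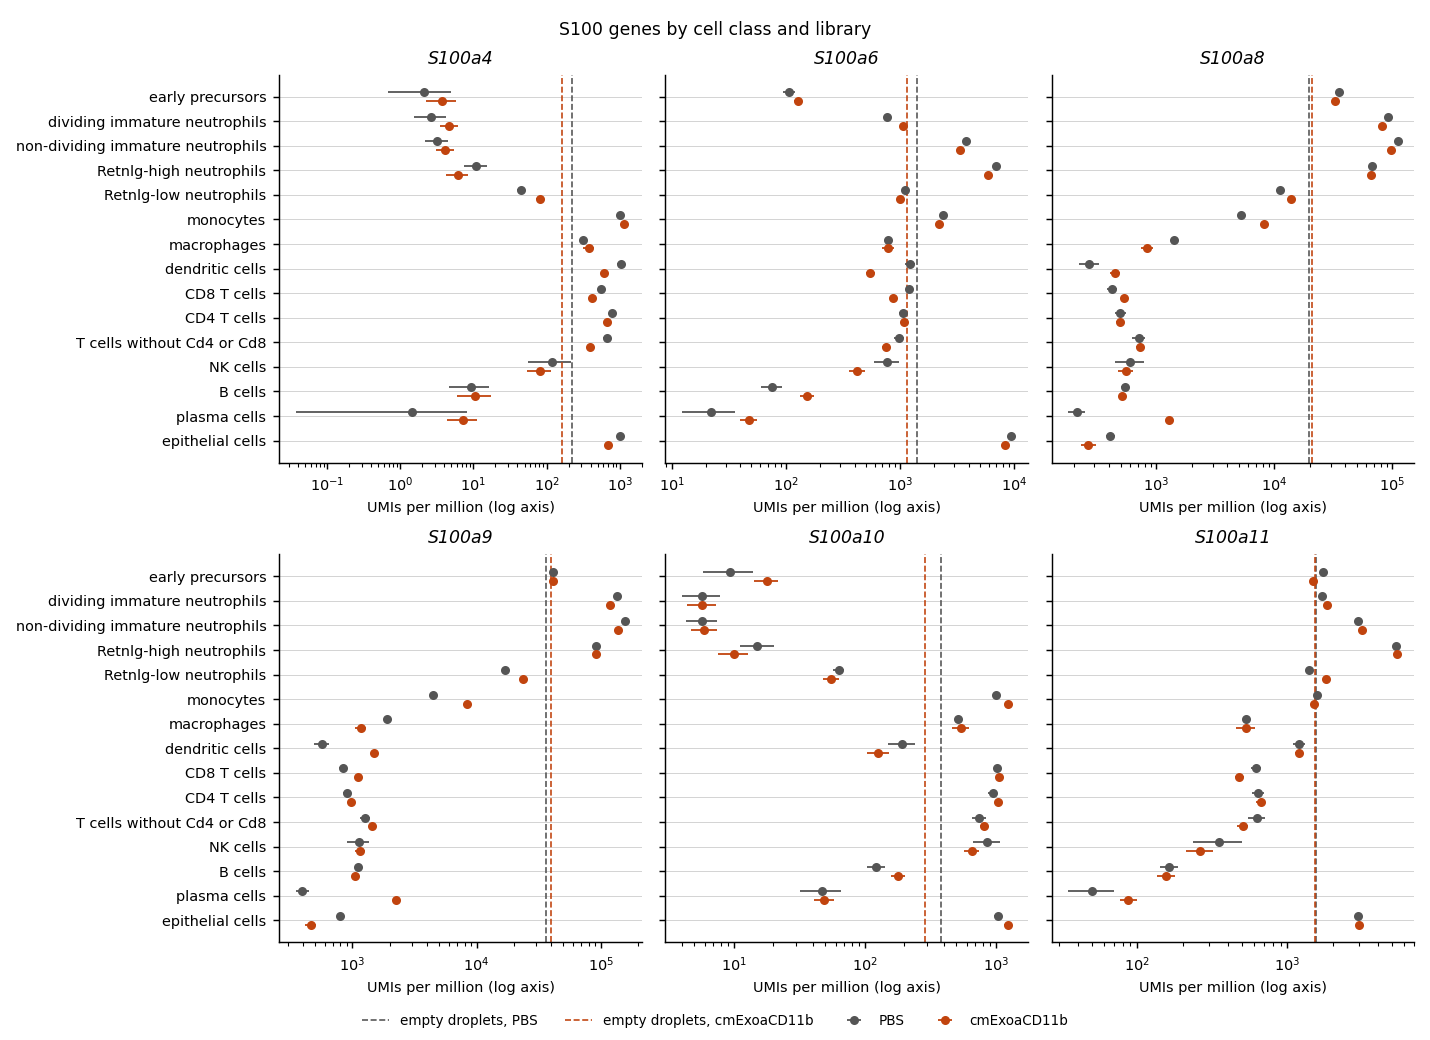
Level of the 6 S100 genes in each class, in CPM on a log axis, for PBS (grey) and cmExoaCD11b (orange), with 95% counting intervals. Dashed lines are the levels in empty droplets. S100a8 and S100a9 are highest in neutrophils and S100a6 in epithelial cells and Retnlg-high neutrophils. S100a4 is highest in monocytes, dendritic cells, epithelial cells and T cells, and S100a10 in epithelial cells, monocytes, T cells and NK cells.

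S100a4 and S100a10 had the opposite distribution. S100a4 stood at 2.12 and 3.69 CPM in early precursors, 2.62 and 4.69 in dividing immature, 3.16 and 4.14 in non-dividing immature, 10.9 and 6.13 in Retnlg-high and 44.4 and 80.3 in Retnlg-low neutrophils. S100a10 had 9.34 and 17.9, 5.71 and 5.75, 5.71 and 5.95, 15.2 and 9.98, and 63.2 and 55.2 CPM in the same classes. All 20 of these values were below the levels in empty droplets, which were 223 and 165 CPM for S100a4 and 381 and 290 CPM for S100a10. With cells called by rank alone, which left 80 and 22 Retnlg-low cells, S100a4 in that class was 1.10 and 4.95 times the empty-droplet level and S100a10 was 1.28 times that level in cmExoaCD11b. The 4 classes before the Retnlg-low cells held 0.952% to 6.16% of the empty-droplet level of either gene, and the genes C1qa, C1qb, C1qc and Jchain of macrophages and plasma cells, summed, held 0.510% to 2.84% there. In Retnlg-low cells S100a4 stood at 19.9% and 48.7% of the empty-droplet level, with 69.9% of its UMIs in 23 of 2311 cells and 89.4% in 13 of 1347 cells, and the median cell held none. Markers of macrophages were present in the same class at a summed 340 and 115 CPM, 8 of 8 with a UMI, although cells with several of these markers had been left out, and their part in the S100a4 level was not tested.

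Monocytes carried S100a4 at 994 and 1159 CPM and S100a10 at 1014 and 1238 CPM, 91.4-fold and 189-fold above Retnlg-high neutrophils for S100a4 and 66.9-fold and 124-fold for S100a10. The size of these folds depends on a gate rule added after S100a4 values had been seen. It left out mature neutrophils with at least 2 macrophage or monocyte markers, and the folds without it were not computed. The 4 other members were past 1.5-fold lower in monocytes, from 0.0489 for S100a9 in PBS to 0.374 for S100a6 in cmExoaCD11b. Of all genes, 57.5% and 57.7% were past 1.5-fold higher and 15% and 16.8% lower in that comparison. Monocytes and Retnlg-high neutrophils thus differed in the kind of S100 transcript they held. S100a6 and S100a11 did not set monocytes below every neutrophil class. S100a6 of monocytes, 2365 and 2218 CPM, was below non-dividing immature cells (3803 and 3338) but above Retnlg-low cells (1097 and 1004). S100a11 of monocytes, 1580 and 1514 CPM, lay near that of early precursors (1717 and 1480).

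Against macrophages, monocytes were higher in class sums for each of the 6 members. The ratios were 3.16 and 3.07 for S100a4, 2.99 and 2.84 for S100a6, 2.98 and 2.87 for S100a11 and 1.96 and 2.29 for S100a10. S100a8 gave 3.66 and 9.74 and S100a9 2.34 and 7.22. The median cell was not higher in monocytes for S100a9, with 807 and 1073 CPM against 883 and 1103 in macrophages. For S100a8 it was, with 811 and 823 against 448 and 551 CPM. In PBS 2 of 231 macrophages held 39.1% of the S100a9 UMIs. These contrasts were not taken without doublet removal, where the macrophage library ratios of both genes changed side of 1 (4.13 and 4.38). The background of genes past 1.5-fold higher was 11.2% and 27.6%. Macrophages had 315 and 377 CPM of S100a4, 792 and 781 of S100a6, 517 and 540 of S100a10 and 530 and 528 of S100a11, and these 4 genes differed by at most 1.199-fold between the libraries although only 43 macrophages were kept in cmExoaCD11b.

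S100a8 and S100a9 of the monocytes were spread unevenly over cells. The class levels were 5225 and 8174 CPM for S100a8 and 4465 and 8410 CPM for S100a9, whereas the median monocyte had 811 and 823 CPM of S100a8 and 807 and 1073 CPM of S100a9. In each library 2 cells held 23.5% and 27.8% of the S100a8 UMIs and 33.7% and 32.0% of the S100a9 UMIs.

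The ratio of S100a8 to S100a9 UMIs, each summed over a class, was higher in monocytes than in neutrophils and in free RNA. It was 1.17 (95% interval 1.14 to 1.20) and 0.972 (0.953 to 0.991) in monocytes and 0.546 and 0.521 in empty droplets. Neutrophils ran from 0.656 and 0.587 in Retnlg-low cells to 0.848 and 0.791 in early precursors. CD8 T cells had 0.501 and 0.482, CD4 T cells 0.548 and 0.512 and B cells 0.487 and 0.494. The lymphocyte ratios lay near those of the empty droplets, and the macrophage ratios of 0.749 and 0.720 lay above them. In monocytes 2 cells per library held 23.5% and 27.8% of the S100a8 UMIs and 33.7% and 32.0% of the S100a9 UMIs. Ratios within single cells were not taken, so the class ratio need not hold for the typical monocyte.

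**Figure D3:**
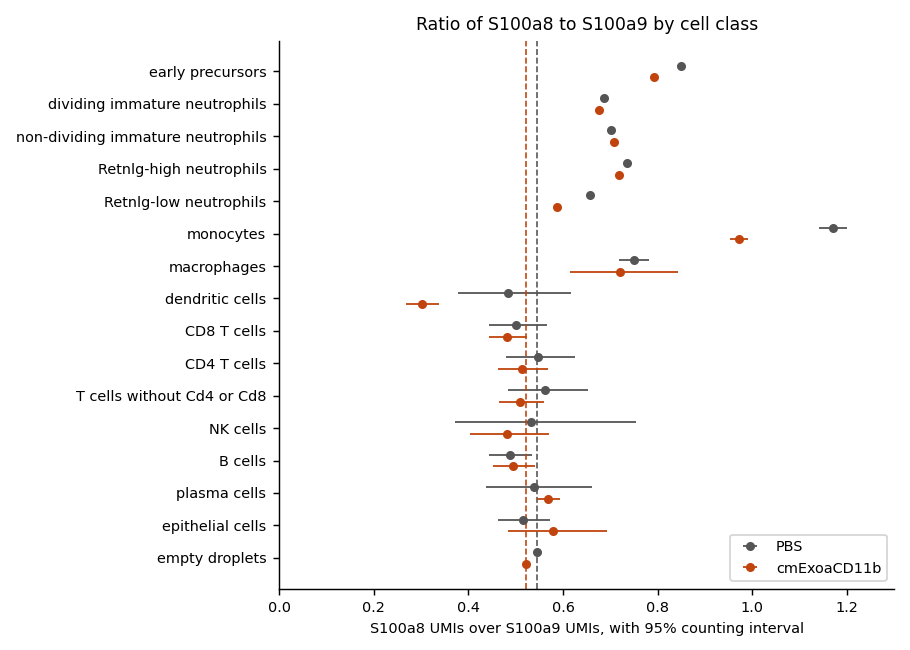
UMIs of S100a8 over those of S100a9 in each class and in empty droplets for PBS (grey) and cmExoaCD11b (orange), with 95% counting intervals. Dashed lines are the empty droplets (0.546 and 0.521); monocytes (1.17 and 0.972) and the neutrophil classes lie to their right and the T, NK and B cells at them.

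In lymphocytes S100a8 and S100a9 stood at the level of free RNA. CD8 T cells had 423 and 537 CPM of S100a8 and 843 and 1113 of S100a9, which is 2.15% and 2.59% and 2.34% and 2.80% of the levels in empty droplets (19685 and 20736 CPM for S100a8, 36082 and 39774 for S100a9). B cells had 2.75% and 2.50% for S100a8 and 3.08% and 2.64% for S100a9. Camp, Ngp and Ltf, granule genes that lymphocytes do not make, stood together at 1.91% and 2.77% in CD8 T cells and at 3.18% and 2.64% in B cells. S100a8 and S100a9 thus stood at about the share of the granule genes, and no expression in lymphocytes can be read from them. Monocytes differed in class sums, with 26.5% and 39.4% for S100a8 and 12.4% and 21.1% for S100a9 beside 1.51% and 3.38% for the granule genes. The median monocyte was not higher for S100a9, with 807 and 1073 CPM beside 909 and 1136 CPM in the median CD8 T cell. For S100a8 it had 811 and 823 CPM beside 432 and 550 CPM.

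**Figure D4:**
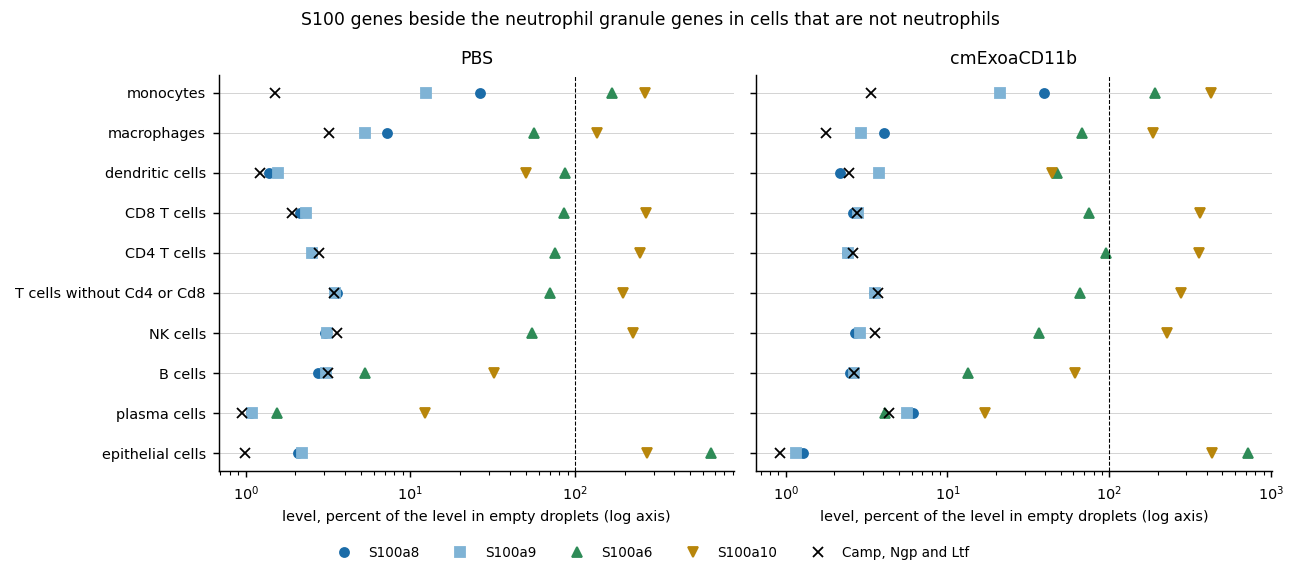
Level in classes other than neutrophils as percent of the level in empty droplets of the same library, on a log axis, for S100a8, S100a9, S100a6 and S100a10 and for Camp, Ngp and Ltf together (crosses). PBS is on the left, cmExoaCD11b on the right, and the dashed line is the empty-droplet level. Levels are class sums. S100a8 and S100a9 lie at the crosses in T, NK and B cells and above them in monocytes, where few cells held much of both.

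T cells carried the other 4 members. CD8 T cells had 556 and 423 CPM of S100a4, 1202 and 861 of S100a6, 1031 and 1057 of S100a10 and 617 and 479 of S100a11. CD4 T cells had 779 and 664 CPM of S100a4, 1059 and 1094 of S100a6, 948 and 1041 of S100a10 and 641 and 663 of S100a11. S100a4 was 1.40-fold and 1.57-fold higher in CD4 than in CD8 T cells, and no other member reached 1.5-fold in either library, where 12.4% and 9.12% of genes did. B cells had 9.17 and 10.6 CPM of S100a4, 75.1 and 154 of S100a6, 123 and 179 of S100a10 and 163 and 156 of S100a11. CD8 T cells thus exceeded B cells 60.6-fold and 40.1-fold for S100a4, 16.02-fold and 5.61-fold for S100a6, 8.41-fold and 5.91-fold for S100a10 and 3.78-fold and 3.08-fold for S100a11, 4 of 6 members against 27.8% and 23.1% of all genes. S100a4 of B cells was at 4.11% and 6.42% of the empty-droplet level, whereas S100a10 was at 32.2% and 61.7%.

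NK cells had 117 and 80.9 CPM of S100a4, 772 and 424 of S100a6, 853 and 655 of S100a10 and 351 and 262 of S100a11. CD8 T cells exceeded them 4.76-fold and 5.23-fold for S100a4, 1.56-fold and 2.03-fold for S100a6 and 1.76-fold and 1.83-fold for S100a11, and 1.21-fold and 1.61-fold for S100a10, so 3 and 4 of 6 members were past 1.5-fold where 29.2% and 17.4% of genes were. CD8 T cells and NK cells were thus nearer to each other in S100a10 than in S100a4. The S100a4 level of NK cells in PBS rested on 10 UMIs, 60% of them in 1 of 25 cells.

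Dendritic cells had 1030 and 614 CPM of S100a4, 1226 and 548 of S100a6, 191 and 128 of S100a10 and 1199 and 1201 of S100a11. They were close to monocytes for S100a11, with ratios of 0.759 and 0.794, and far below them for S100a10, with 0.189 and 0.103. Past 1.5-fold lower than in monocytes were 4 and 5 of 6 members, against 25.5% and 23% of genes. Plasma cells were lowest for S100a6, with 22.0 and 47.3 CPM, and for S100a11, with 49.8 and 87.0 CPM.

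Epithelial cells had the highest S100a6 of the 15 classes, 9349 and 8344 CPM, or 3.95-fold and 3.76-fold above monocytes. Their S100a11 of 2956 and 2982 CPM was 1.87-fold and 1.97-fold above monocytes, and 32.5% and 22.9% of genes were past 1.5-fold higher there. S100a10 of 1034 and 1243 CPM did not differ from that of monocytes beyond the counting error, with ratios of 1.02 (0.954 to 1.09) and 1.00 (0.932 to 1.08). S100a8 and S100a9, at 1.29% to 2.08% and 1.16% to 2.20% of the empty-droplet level, lay a little above the granule genes at 0.987% and 0.915%.

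The order of the classes was largely shared by the libraries. S100a8 and S100a9 had the same first 6 classes in both, from non-dividing immature neutrophils to monocytes, and none of these neighbours overlapped in their counting intervals. For S100a4 in PBS dendritic cells, epithelial cells and monocytes did not differ beyond counting error, and in cmExoaCD11b monocytes stood first, ahead of epithelial cells, CD4 T cells and dendritic cells, which overlapped. S100a10 in PBS did not differ beyond counting error between neighbours from epithelial cells through CD8 T cells, monocytes, CD4 T cells and NK cells to T cells without Cd4 or Cd8. S100a6 had the same first 4 classes in both libraries, which were epithelial cells, Retnlg-high neutrophils, non-dividing immature neutrophils and monocytes. S100a11 was first in Retnlg-high neutrophils in both, with epithelial and non-dividing immature cells behind it and overlapping each other.

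Between the treatments the class sums of the members passed 1.5-fold about as often as those of all genes. In the 10 classes with at least 50 cells in both libraries, 58 of 60 pairs of member and class had at least 50 UMIs. Of these, 6 were past 1.5-fold higher and 3 past 1.5-fold lower in cmExoaCD11b, while 12.2% and 6.7% of 69695 pairs of gene and class were over all genes, or 9.51% and 8.34% with a median-of-ratios size factor. With each cell given the same weight the counts were 1 higher and 2 lower, where 12.8% and 8.34% of all pairs were, and with cells thinned to 1000 UMIs they were 2 and 3, where 23.8% and 18.2% were. By class, the higher and lower counts of the 6 members were 1 and 0 in early precursors (8.62% and 2.75% of all genes), 1 and 0 in dividing immature neutrophils (11.5% and 2.35%), 0 and 0 in non-dividing immature neutrophils (13.4% and 3.44%), 0 and 2 in Retnlg-high neutrophils (14.7% and 7.39%) and 1 and 0 in Retnlg-low neutrophils (12.8% and 16.3%). They were 2 and 0 in monocytes (13.5% and 7.74%), 0 and 0 in CD8 T cells (17.1% and 12.2%) and CD4 T cells (11% and 5.52%), 0 and 1 in T cells without Cd4 or Cd8 (11.9% and 6.66%) and 1 and 0 in B cells (8.24% and 3.98%). In dividing and non-dividing immature neutrophils and in monocytes the median gene was itself higher in cmExoaCD11b, by 0.13, 0.16 and 0.11 on the log2 scale.

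In neutrophils S100a8 and S100a9 stayed under 1.5-fold. The ratios of cmExoaCD11b to PBS were 0.927, 0.877, 0.870 and 0.988 for S100a8 and 0.994, 0.891, 0.863 and 1.01 for S100a9 in the 4 classes from early precursors to Retnlg-high cells. Retnlg-low cells had 1.25 (1.23 to 1.26) and 1.39 (1.38 to 1.40). The largest ratios of these 2 genes in the 10 classes were those of monocytes, 1.56 (1.53 to 1.60) for S100a8 and 1.88 (1.84 to 1.93) for S100a9. The medians of single monocytes, 811 against 823 CPM for S100a8 and 807 against 1073 CPM for S100a9, differed less than the class sums. Markers of immature neutrophils were also higher in the cmExoaCD11b monocytes, summing to 426 and 1136 CPM with 5 of 5 detected in both, among them Camp 2.59-fold, Ngp 2.85-fold and Ltf 3.47-fold. Markers of mature neutrophils summed to 751 and 1029 CPM. Macrophage markers, 8 of 8 detected in both, summed to 4434 and 1371 CPM in the monocyte class, beside 3745 and 4073 CPM for its own monocyte markers. The part of these lists in the S100a8 and S100a9 ratios was not tested. When each cell had the same weight, the ratios were 1.15 for S100a8 and 1.31 for S100a9.

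S100a4 was past 1.5-fold in 4 of these 10 classes, and not in the same direction. It was higher in dividing immature neutrophils (ratio 1.79, 1.02 to 3.29, from 17 and 53 UMIs) and in Retnlg-low neutrophils (1.81, 1.53 to 2.13). It was lower in Retnlg-high neutrophils (0.563, 0.340 to 0.935, from 33 and 35 UMIs) and in T cells without Cd4 or Cd8 (0.589, 0.501 to 0.692). The higher values rested on few cells. Without the 1% of cells with most S100a4, the ratio was 0.641 in Retnlg-low cells and 0.899 in dividing immature cells, whereas that of Retnlg-high cells was 0.490. In the T cells it went from 666 to 392 CPM and kept its direction under each of 11 other settings, between 0.236 and 0.704. CD8 and CD4 T cells were lower as well, with 0.761 (0.677 to 0.856) and 0.853 (0.763 to 0.954).

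S100a10 was higher in early precursors (1.91, 1.19 to 3.20, from 22 and 92 UMIs) and lower in Retnlg-high neutrophils (0.658, 0.438 to 0.992). The early precursor ratio was 0.890 with each cell given the same weight, 1.17 with thinned cells and 4.03 with gates set by each library's own empty droplets. All these levels lay within the low range of 0.952% to 6.16% of the empty-droplet level given above. S100a10 of CD8 T cells and CD4 T cells was nearly level between the libraries, with 1.02 (0.946 to 1.11) and 1.10 (0.999 to 1.21).

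S100a6 was past 1.5-fold in B cells, from 75.1 to 154 CPM (2.05, 1.59 to 2.64). There 3 of 290 cells held 53.2% of its UMIs in cmExoaCD11b. With each cell given the same weight the ratio was 1.18. The markers of monocytes in B cells summed to 139 and 282 CPM, with Vcan at 0 in PBS, and those of macrophages to 486 and 272 CPM, with Trem2 at 0 in cmExoaCD11b, and their part was not tested. In dividing immature neutrophils S100a6 was 1.38-fold higher (1.33 to 1.42), and in CD8 T cells it was lower (0.716, 0.661 to 0.776).

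S100a11 passed 1.5-fold in none of the 10 classes. Its largest difference was in Retnlg-low neutrophils, 1.31 (1.27 to 1.35), and its lowest ratios were 0.776 (0.694 to 0.866) in CD8 T cells and 0.804 in T cells without Cd4 or Cd8.

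**Figure D5:**
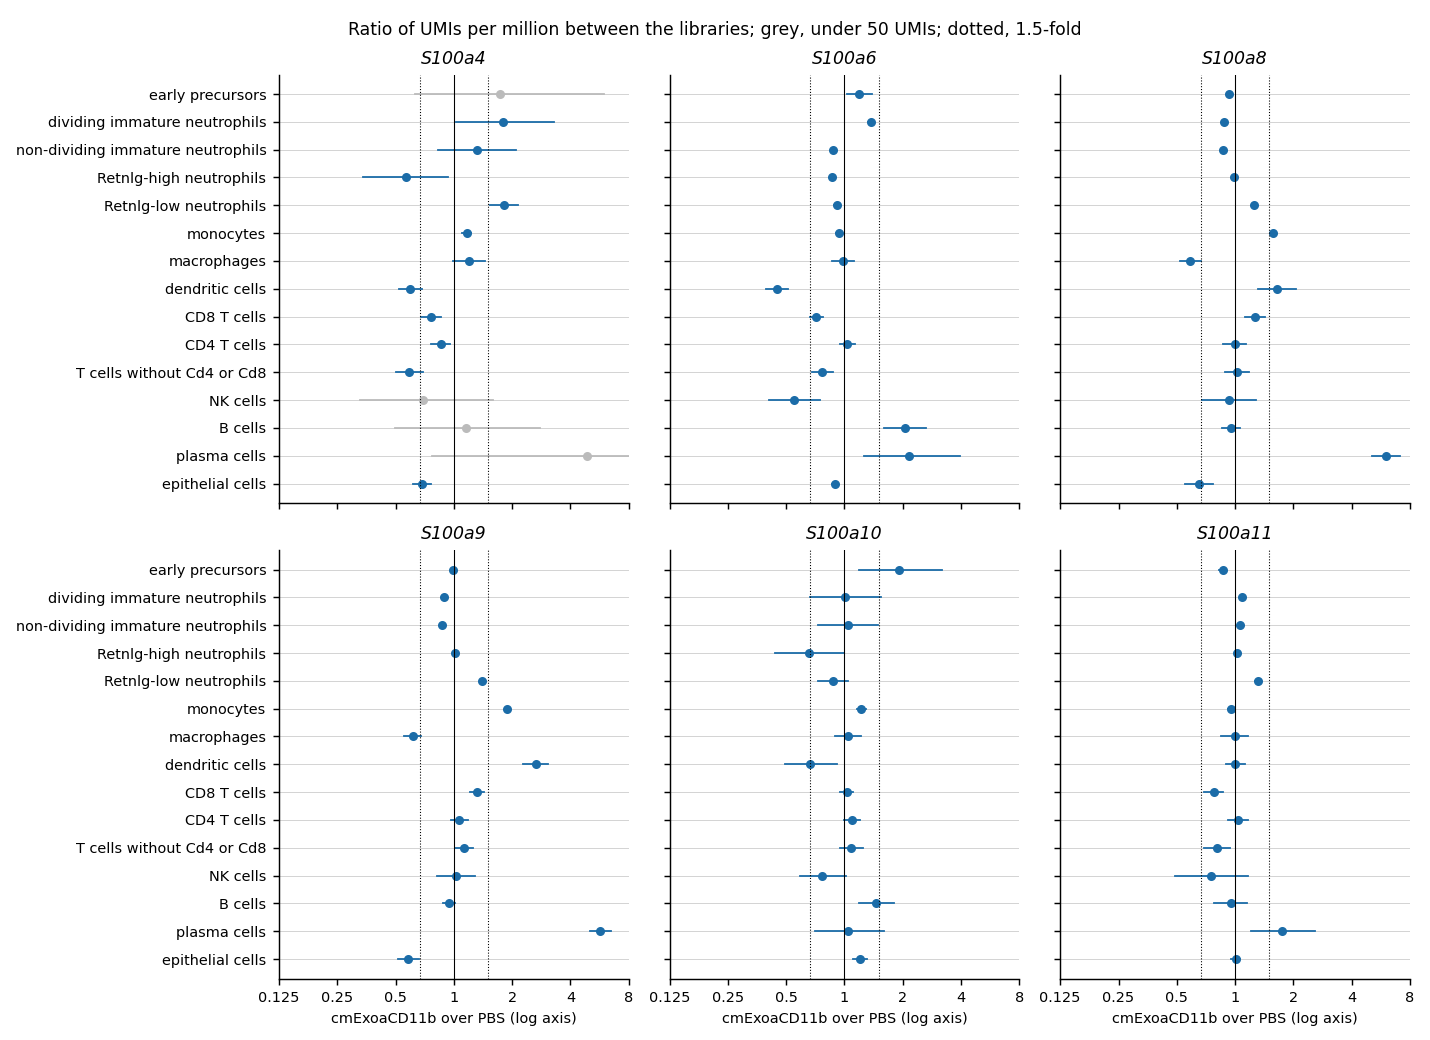
Ratio of CPM in cmExoaCD11b to PBS for each gene and class on a log axis with 95% counting intervals, cut at the edges of the axis. Grey points have fewer than 50 UMIs in both libraries together and dotted lines mark 1.5-fold; S100a8 and S100a9 pass it in monocytes, and S100a11 passes it in plasma cells alone.

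The 5 classes with under 50 cells in a library are given as values. In macrophages S100a8 had a ratio of 0.588 and S100a9 of 0.611, where 12.5% of genes were past 1.5-fold higher and 16.4% lower. In PBS 2 of 231 macrophages held 47.97% of the S100a8 UMIs, and before doublets were removed the ratios were 4.13 and 4.38. Dendritic cells had 1.65 for S100a8 and 2.65 for S100a9, with 61.3% of the cmExoaCD11b S100a9 in 1 cell, and 0.596 for S100a4, 0.447 for S100a6 and 0.667 for S100a10, where 14.8% of genes were higher and 9.71% lower. Markers of immature neutrophils summed to 313 and 785 CPM in dendritic cells, with Fcnb at 0 in PBS, and the granule genes Camp (2.19), Ngp (2.54), Ltf (5.25) and Lcn2 (3.18) were past 1.5-fold higher. Their part in the S100a8 and S100a9 ratios was not tested. NK cells had 0.549 for S100a6, where 21.5% of genes were higher and 8.25% lower. Plasma cells had 5.999 for S100a8, 5.69 for S100a9, 2.15 for S100a6 and 1.75 for S100a11, where 31.4% of genes were higher, 3.33% were lower and the median gene was higher by 0.36 on the log2 scale. In these plasma cells 1 of 105 held 31.7% of the S100a8 UMIs, the median cell had 219 and 240 CPM, and markers of immature neutrophils summed to 242 and 1374 CPM, whose part was not tested. Epithelial cells had 0.653 for S100a8 and 0.580 for S100a9, where 5.75% of genes were higher and 12.5% lower.

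The other S100 genes were mostly at low levels. S100a13, which takes part in the release of proteins without a signal peptide, had 30.2 to 193 CPM in all 15 classes. S100a1, a gene best known from heart muscle, was highest in early precursors (140 and 119 CPM) and epithelial cells (121 and 121 CPM) and at 2.97 and 3.68 CPM in Retnlg-high neutrophils. S100a14 (54.2 and 65.0 CPM) and S100a16 (168 and 206 CPM) were found in epithelial cells and were at most 1.19 and 3.02 CPM in any other class. S100a3, S100a5, S100a7a, S100b and S100z were at most 13.7 CPM in any class. Between the libraries, most of the 10 could not be counted. Only 1 or 2 of them had at least 50 UMIs in a class, and 5 in epithelial cells. None of these was past 1.5-fold higher, to be read beside the shares of all genes by class above. S100a1 in Retnlg-low neutrophils (0.551) and S100g in epithelial cells (0.289) were lower, where 16.3% and 12.5% of genes were.

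The binding partners had patterns of their own. Anxa1, which encodes annexin A1, had 3598 and 3758 CPM in dividing and 4339 and 4137 CPM in non-dividing immature neutrophils and 1151 and 1393 CPM in Retnlg-high cells, where S100a11 was highest. Anxa2, which encodes the partner of S100a10, had 1723 and 1911 CPM in epithelial cells, 1038 and 936 in monocytes and 1096 and 910 in Retnlg-high neutrophils, so it was present in neutrophils with little S100a10. Ahnak, a large scaffold protein that binds S100a10 with annexin A2, had 206 and 217 CPM in monocytes, 229 and 332 in CD8 T cells and 0.772 to 17.4 CPM in the 5 neutrophil classes. Of the 6 partner genes, at most 2 passed 1.5-fold between the libraries in any of the 15 classes. In Retnlg-low neutrophils and plasma cells 2 were higher, where 12.8% and 31.4% of all genes were. In CD4 T cells and T cells without Cd4 or Cd8 2 were lower, where 5.52% and 6.66% of all genes were.

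Among the receptors, Tlr4, which binds calprotectin, had 306 and 243 CPM in Retnlg-low neutrophils, 120 and 109 in Retnlg-high neutrophils and 81.3 and 45.7 in monocytes. Its ratio of cmExoaCD11b to PBS was 1.61 in non-dividing immature neutrophils, 0.562 in monocytes and 0.373 in macrophages. Bsg, the S100a9 receptor basigin, was lower in cmExoaCD11b in Retnlg-high (0.451) and Retnlg-low (0.593) neutrophils, in monocytes (0.553) and in T cells without Cd4 or Cd8 (0.650). Cd33, another receptor described for S100a9, was higher in early precursors (1.71) and Retnlg-low neutrophils (1.62). Cd36, a scavenger receptor, was lower in dendritic cells (0.563) and B cells (0.622). These are the receptor ratios past 1.5-fold in the 15 classes, and at most 2 of 5 receptor genes passed it in a class, to be read beside the shares of all genes given by class above. Ager, which encodes the receptor for advanced glycation end products, was at most 2.83 CPM in any class.

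By profile, S100a8 and S100a9 were most like each other among the genes compared. Those genes reached 50 CPM in a profile and were no gate marker, so Camp, Ngp, Ltf and Retnlg were not among them. Over 20 profiles (10 classes in each library) and 5912 genes, Pearson's r of log2(CPM + 10) was 0.996 between them, and next for S100a8 were Wfdc21 (0.991) and Pygl (0.989) and for S100a9 Mapk13 and Pram1 (both 0.987). For S100a4 the genes most like it were Frmd4b (0.965) and Ahnak (0.959), and for S100a10 they were Mdfic (0.987), Elk3 (0.986) and Ahnak (0.980). S100a6 was most like Prr13 (0.899), Lcp1 (0.898) and Adam8 (0.893), and S100a11 most like Rhog (0.945), Flot1 (0.942) and Tnfrsf1a (0.936). Among the members S100a4 and S100a10 had an r of 0.943 and S100a8 and S100a10 of -0.867. The profiles share libraries and depth, and genes were chosen by the value itself, so these are descriptions.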

How the data were processed

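Single cells of orthotopic mouse pancreatic tumors had been sequenced as 1 PBS and 1 cmExoaCD11b library, each pooled from 3 mice. The authors aligned and counted the reads with Cell Ranger (7.1.0 per the file headers, another version in the study's methods), and the deposited values are unfiltered UMI counts per gene and barcode. The genome build is not given in the sources used here. Barcodes with 1 to 100 UMIs served as empty droplets. Cells were called from barcodes with at least 500 UMIs, by rank (the 99th percentile of the top 3000 divided by 10) or by a test against the empty droplets (10000 simulations, false discovery rate 0.01), giving 7696 and 7893. Cells with fewer than 200 genes or over 20% mitochondrial UMIs were removed. Doublets were removed by Scrublet score (Scanpy 1.11.5) at 0.8% per 1000 cells, 421 and 453 cells, since its automatic cut marked 0.

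Classes were set by marker UMIs against the empty-droplet level, the higher of both libraries. Mature neutrophils with UMIs of at least 2 macrophage or monocyte markers (Apoe and Ly6c2 aside) were left out, a rule added after S100a4 values had been seen. The members, gene lists, gates, and the splits by Retnlg with Mmp8 and by division genes were chosen with earlier results of these data known. Counts were summed per class. CPM carry exact Poisson 95% intervals, and ratios exact conditional ones. With 1 library per treatment no test was run. Genes with at least 50 UMIs in a class over both libraries entered counts of ratios past 1.5-fold. All 6 members and the listed S100, partner and receptor genes are named by rule, with the 3 most alike genes of each member by profile; some items are not reported here. Scripts ran in Python 3.11.15 (NumPy 2.4.6, SciPy 1.17.1, pandas 2.3.3) and were tested on simulated data. Alternatives changed the cell calling, doublets, gates, scaling, weighting, depth, free RNA and thresholds.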

Additional observations from a re-analysis of the deposited data

Results flagged for a closer look

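S100a4 and S100a10 had library ratios on opposite sides of 1 in different cell classes. The cmExoaCD11b to PBS ratio of S100a4 was 1.79 in dividing immature neutrophils and 1.81 in Retnlg-low neutrophils, against 0.563 in Retnlg-high neutrophils and 0.589 in T cells without Cd4 or Cd8. That of S100a10 was 1.91 in early precursors against 0.658 in Retnlg-high neutrophils. Without the 1% of cells with most S100a4 its ratio was 0.899 in dividing immature and 0.641 in Retnlg-low neutrophils, on the same side of 1 as the 0.490 of Retnlg-high cells. With each cell given the same weight it was 0.959 in Retnlg-low neutrophils, and that of S100a10 in early precursors was 0.890. With 1 library per treatment the difference between classes was not tested.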

How the results depend on the processing

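No paired analysis was possible because each treatment has 1 library. Leaving out a replicate was likewise impossible. Over the 10 classes 6 pairs of member and class were past 1.5-fold higher and 3 lower. With each cell weighted equally 1 was higher and 2 lower (12.8% and 8.34% of all pairs of gene and class), and with cells thinned to 1000 UMIs 2 and 3 (23.8% and 18.2%). At a fold of 2 there was 1 higher and 0 lower (3.65% and 1.82%). Without the 1% of cells holding most of a gene 3 were higher and 4 lower. The share over all genes was not computed for that setting, so these counts have no background beside them. The last-named cells and the gate level of each library were alternatives chosen after seeing the data. Ratios changed side of 1 for S100a8 (4.13) and S100a9 (4.38) in macrophages without doublet removal. With 1 more marker required they did for S100a4 in dividing immature neutrophils (0.918) and S100a10 in dendritic cells (1.12). With equal cell weights they did for S100a10 in early precursors (0.890), S100a4 in Retnlg-low neutrophils (0.959), S100a9 in macrophages (1.24) and S100a6 in plasma cells (0.815). Thinned cells gave 0.577 for S100a4 in dividing immature neutrophils and 1.34 for S100a9 in macrophages. Subtracting free RNA gave 0.611 for S100a11 in plasma cells. In cmExoaCD11b it left no S100a8 in dendritic cells, at 2.16% of the empty-droplet level where Camp, Ngp and Ltf stood at 2.47%. It also left no S100a6 in plasma cells there, at 4.10% beside 4.33%. In PBS it left some of both. These 2 pairs, past 1.5-fold higher without the subtraction, thus have no ratio above 1 with it. Without the top 1% of cells S100a4 was 0.899 in dividing and 0.641 in Retnlg-low cells. Relative to empty droplets, S100a8 in cmExoaCD11b early precursors was 0.925 with empties of up to 50 UMIs. With cells called by rank alone, S100a4 in Retnlg-low neutrophils was 1.10 and 4.95, S100a10 there 1.28 and S100a4 in NK cells 1.35 in cmExoaCD11b, and S100a4 in CD4 over CD8 T cells 0.972. The cause was not tested.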

Other observations

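Neutrophil granule genes also differed in monocytes. Lcn2, which encodes the iron-scavenging lipocalin 2, had 798 and 1464 CPM (ratio 1.84), and Mmp9, which encodes a gelatinase, had a ratio of 0.268, so 4 of 7 granule genes were past 1.5-fold higher and 1 lower, where 13.5% and 7.74% of all genes were. In Retnlg-low neutrophils Lcn2 had 847 and 1970 CPM (2.33). There 5 of 7 granule genes were past 1.5-fold higher and 1 lower, where 12.8% and 16.3% of genes were. All of the 7 but Lcn2 are markers of the neutrophil gates, and Retnlg with Mmp8 set the Retnlg-low class. The counts in both classes thus depend on the gates and are no independent observation. The empty droplets had 5605 and 8164 CPM of Lcn2 and 614 and 363 CPM of Mmp9, and the part of free RNA was not tested.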
